A study of Mus musculus with 2 samples.

Results

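Myoc Gpx3 fibroblasts are skin fibroblasts that carried Myoc transcripts and few or no Pi16 transcripts in single-cell libraries of mouse back skin. A barcode counted as 1 of them when it held at least 500 detected genes and under 20% mitochondrial unique molecular identifiers (UMIs), at least 0.5% of its UMIs from Dcn, Col1a1, Col1a2 and Col3a1 together, at least 2 Myoc UMIs, fewer than 2 Pi16 UMIs and 0 Ptprc UMIs. Members were thus chosen by their own Myoc, Pi16, Ptprc and collagen counts, and those values are given only as a description. By that rule 188 of 8364 deposited barcodes qualified, 91 of 3348 in the Card14KI library and 97 of 5016 in the WT library. The tested animal was a Card14KI mouse, homozygous for a knock-in at Card14 (genotype Card14 KI +/+), and the animal it was set against was a wild-type mouse; both were C57BL/6 and 12 months old. The series title presents Card14-mutant mice as a model of pityriasis rubra pilaris, an inflammatory skin disease, and points to IL-17 and to signals of IL-36; the labels do not give the mutated residue. Full-thickness back skin was digested for 73 min, depleted of dead cells and debris, and profiled with 10x 3' v3.1 chemistry. There was 1 mouse per genotype, so no difference between genotypes has a replicate check, no test between them was possible, and every interval covers counting error only.

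CARD14 is a scaffold protein of keratinocytes that joins BCL10 and MALT1 to switch on NF-kB. Fibroblasts answer the cytokines that follow, IL-1, IL-17, TNF and interferons, with chemokines, cytokines and matrix-degrading enzymes. Skin fibroblasts differ by depth: papillary cells lie under the epidermis, reticular cells build the thick collagen of the lower dermis, and Pi16 and Dpp4 cells occupy the fascia and the adventitia of vessels. Myoc encodes myocilin, a secreted olfactomedin-domain glycoprotein best known from the outflow tissue of the eye. Gpx3 encodes the secreted, selenium-containing glutathione peroxidase of plasma, Apod a lipocalin that carries small lipids, Ogn the small leucine-rich proteoglycan osteoglycin, and Dpt dermatopontin, a matrix protein that binds decorin. Myoc lies at chr1:162639155-162649693 on the plus strand and Gpx3 at chr11:54902453-54910377 on the plus strand (GRCm38, GENCODE annotation).

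After the filter on genes and mitochondrial UMIs, 2913 Card14KI and 4335 WT barcodes remained, with medians of 6964 and 7385 UMIs. Fibroblast barcodes without Ptprc numbered 1364 in Card14KI and 2138 in WT. The Myoc Gpx3 fibroblasts held 468158 UMIs in Card14KI and 473727 in WT, with medians of 4717 and 4074 UMIs and of 1779 and 1806 genes per barcode. Ribosomal protein genes took 22.5% of these UMIs in Card14KI and 16.9% in WT, a gap also present in the fibroblasts with neither Myoc nor Pi16 (19.7% and 14.8%). The libraries shared 2 barcode sequences, none of them a Myoc Gpx3 fibroblast. Card14 had 0 UMIs in the Myoc Gpx3 fibroblasts of both libraries and stood at 20.7 CPM (UMIs of a gene per 1000000 UMIs of the class) in Card14KI keratinocytes and 27.7 CPM in WT keratinocytes; a knock-in leaves the gene in place, so this level checks neither label.

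The marker genes fitted the name. Outside Myoc itself, which the rule used, Gpx3 reached 3116 CPM in Card14KI and 5402 CPM in WT, against 1260 and 641 CPM in the fibroblasts of the same libraries that had neither 2 Myoc nor 2 Pi16 UMIs. Apod stood at 1696 and 3867 CPM, against 984 and 588 CPM in those other fibroblasts. Ogn stood at 1525 and 1782 CPM, against 674 and 305 CPM, and Dpt at 2004 and 2765 CPM, against 946 and 775 CPM. Each of these 4 genes was therefore higher in the Myoc Gpx3 fibroblasts than in those other fibroblasts of either library. In Card14KI barcodes with 2 or more UMIs of both Myoc and Pi16, Ogn (1997 CPM) and Dpt (2071 CPM) were at least as high. All 5 markers were detected in 68 of 91 Card14KI and in 77 of 97 WT Myoc Gpx3 fibroblasts. Gpx3 had a UMI in 97.8% of Card14KI and 95.9% of WT barcodes, and in 92.5% and 94.7% after thinning each to 2000 UMIs, which left out 24 and 21 shallower barcodes. Keratinocytes, which should lack it, showed 5.89% and 14.3% at median depths of 23551 and 18988 UMIs, and 0.431% and 3.14% after thinning. Within the Myoc Gpx3 fibroblasts the markers varied widely: Myoc ran from 2 to 52 UMIs (median 5) in Card14KI and from 2 to 55 (median 7) in WT, and Gpx3 from 0 to 84 (median 12) and from 0 to 102 (median 21).

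Ptprc was 0 by the rule and other defining markers were low, with red cell genes, keratinocyte genes and Igkc as the exceptions. Igkc, an immunoglobulin light chain, had 2154 UMIs in Card14KI, 2146 of them in 1 barcode, and 12 in WT. Pecam1 had 2 and 0 UMIs, Acta2 0 and 1, and Tagln 0 and 3 in Card14KI and WT. Of the immune list of 16 genes, which does not hold Igkc, 1 reached 10 UMIs over both libraries. The list's summed level was 55.5 and 38.0 CPM. Of the endothelial list of 12, 2 reached 10 UMIs, and none of the skeletal muscle or adipocyte genes did. The endothelial list summed to 138.8 and 116.1 CPM, against 101.8 and 73.7 CPM in the other fibroblasts. All 12 keratinocyte genes reached 10 UMIs, with summed levels of 335.4 and 320.9 CPM, against 1755 and 1187 CPM in the other fibroblasts. The red cell list summed to 168.7 and 19.0 CPM, with UMIs in 48 of 91 and 8 of 97 barcodes, against 6992 and 336 CPM in the other fibroblasts. The part of these transcripts in the results was not tested. Other genes of the olfactomedin family were low beside Myoc. Olfml2b stood at 122 and 171 CPM, Olfml3 at 96.1 and 103 CPM, and 4 of the other 9 family members reached 10 UMIs.

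The Pi16 limit divided a larger Myoc population. Of all fibroblast barcodes with 2 or more Myoc UMIs, 583 in Card14KI and 672 in WT, most also held 2 or more Pi16 UMIs (492 and 575), and the Myoc Gpx3 fibroblasts were 15.6% and 14.4% of them. Barcodes with both genes had 1895 and 2030 CPM of Myoc, a gene of the rule, beside 1846 and 2238 CPM in the Myoc Gpx3 fibroblasts, and 2859 and 4661 CPM of Gpx3. Their Apod level was lower, at 991 and 1376 CPM, beside 1696 and 3867 CPM. Ogn stood at 1997 and 1623 CPM in them, beside 1525 and 1782 CPM. Dpt stood at 2071 and 2387 CPM, beside 2004 and 2765 CPM. The barcodes with both genes were deeper, at medians of 6860 and 7661 UMIs, so that a low Pi16 count and a shallow barcode went together. The part of depth in the division was not tested. Just inside the Pi16 limit, the 49 and 46 barcodes with 1 Pi16 UMI had 3165 and 5918 CPM of Gpx3. Just outside, the 39 and 54 with 2 Pi16 UMIs had 3625 and 5651 CPM. At the Myoc limit, the 13 and 11 barcodes with 2 Myoc UMIs had 2690 and 4971 CPM of Gpx3, and the 20 and 17 with 1 Myoc UMI had 2376 and 1480 CPM. On the collagen limit, 9 and 10 members had a share of 0.5% to 1%, while 2 and 3 very deep barcodes fell under 0.5%.

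The rule chose barcodes with these values, so genes that set the Myoc Gpx3 fibroblasts apart from the other fibroblasts are a description. At least 2-fold higher in both libraries were 94 of 6982 genes tested (1.35%), and at least 2-fold lower 224 (3.21%). After Myoc, the highest included Sfrp4, a secreted Wnt modulator, at 534 CPM in Card14KI and 279 CPM in WT against 136 and 69.0 CPM in the other fibroblasts. Has1, a hyaluronan synthase, stood at 1036 and 773 CPM against 302 and 87.9 CPM. Hmcn2, the matrix protein hemicentin 2, stood at 320 and 773 CPM against 110 and 46.9 CPM. Akr1c14, an aldo-keto reductase of steroids, stood at 186 and 530 CPM against 63.3 and 42.2 CPM. Npr1, a natriuretic peptide receptor, stood at 76.9 and 35.9 CPM against 20.8 and 8.60 CPM. Col6a6, Pcsk6, Plac8, Tgm2, Greb1, Plau, Islr and AW551984 completed the list together with Gpx3. Has1, Plac8, Sfrp4 and Gpx3 were also high in the barcodes with both Myoc and Pi16 (Plac8 at 1827 and 1038 CPM there, against 1596 and 878 CPM), while Hmcn2 stood at 146 and 406 CPM there.

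Over the Pi16 barcodes, 106 of 9551 genes (1.11%) were higher and 449 (4.7%) lower by the same measure. The genes lowest against the other fibroblasts included regulators, contractile genes and genes of other cell types. Trps1, a transcription factor of hair follicle mesenchyme, stood at 2.14 and 2.11 CPM in the Myoc Gpx3 fibroblasts, against 95.5 and 167 CPM in the other fibroblasts. Tpm2, a tropomyosin, stood at 6.41 and 25.3 CPM against 58.2 and 235 CPM, and Nrep at 17.1 and 69.7 CPM against 98.7 and 376 CPM. S100a4, a calcium-binding protein, stood at 207 and 42.2 CPM against 985 and 719 CPM. Krt10, Krtdap and Hbb-bs, which belong to keratinocytes and red cells, were also among the 10 lowest. Of the dermal papilla and sheath list, 5 genes were tested and all 5 were at least 2-fold lower in both libraries; of the papillary list, 6 of 11 were. Of the muscle interstitial list, a set of genes known from the connective tissue cells of muscle, 4 of 21 were higher and 1 lower.

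Across all fibroblast barcodes, Gpx3 was the gene whose level followed Myoc most closely among 10234 genes, with a Pearson r on log2 values of 0.54 in Card14KI and 0.62 in WT. Gpc3, a glypican, followed at 0.46 and 0.53, and then Ifi27l2a at 0.47 and 0.46, Plac8 at 0.45 and 0.50, Sfrp4 at 0.41 and 0.42, Ogn at 0.40 and 0.44, Col14a1 at 0.48 and 0.39, Itih5 at 0.37 and 0.39, Cygb at 0.35 and 0.49 and Ifi205 at 0.35 and 0.44. Apod ranked 53rd at 0.21 and 0.25. Col1a1 stood last, at -0.27 and -0.52. These r values are over 1364 and 2138 barcodes that share a library and its depth and are given as a description.

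The Myoc Gpx3 fibroblasts did not form 1 cluster. Fibroblast barcodes fell into 11 clusters when Myoc, Pi16 and the interferon, MHC, inflammatory, chemokine and stress genes were kept out of the clustering. Other genes, such as collagens, were not kept out, so their values within a cluster may not be independent of the clustering. Cluster 2, led by Hmcn2, Gfra1, Abca8a, Sfrp1, Myoc and Bmper, held 102 of the 188, or 54.3%. Cluster 4, led by Cxcl13, Cxcl2, Cxcl1, Il6, Gm12840, Ccl2 and Ptgs2 (a chemokine and cytokine set), held 34, and cluster 9, led by Nkain4, Clu and Tgm2, held 23. The libraries divided differently. Cluster 2 held 39.6% of the Card14KI and 68.0% of the WT Myoc Gpx3 fibroblasts (36 of 91 and 66 of 97; exact binomial intervals 29.5% to 50.4% and 57.8% to 77.1%). Cluster 4 held 31.9% and 5.15% (29 of 91 and 5 of 97; 22.5% to 42.5% and 1.69% to 11.6%). Cluster 9 held 12.1% and 12.4%. The cluster 4 barcodes were deep: they held 236164 of the 468158 Card14KI UMIs and 48692 of the 473727 WT UMIs, so their weight in the summed Card14KI levels exceeded their share of barcodes. Of all fibroblast barcodes, cluster 4 held 29.0% in Card14KI and 4.12% in WT. With 1 library per genotype, a cluster that comes mostly from 1 library cannot be told apart from that library. Every Card14KI to WT value below therefore mixes levels within clusters with this difference in makeup, and values within cluster 2 are given beside the main gene lists and the genes the text turns on.

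**Figure D1:**
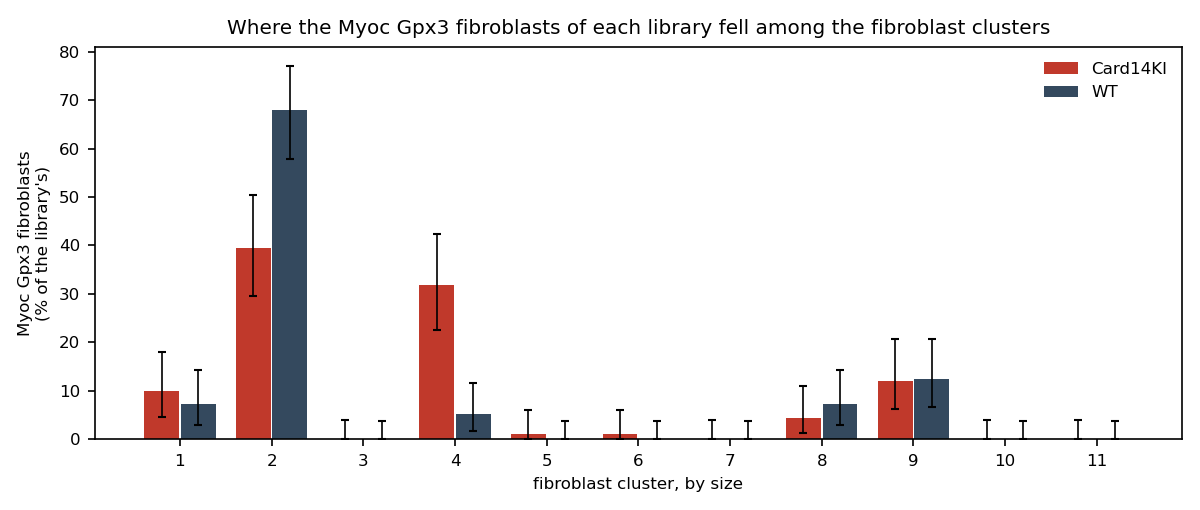
Percent of each library's Myoc Gpx3 fibroblasts in each of 11 fibroblast clusters, Card14KI (red) left of WT (dark blue), with exact binomial intervals for counting error. Cluster 4 held 31.9% of the Card14KI and 5.15% of the WT barcodes, and cluster 2 held 39.6% and 68.0%.

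Myoc Gpx3 fibroblasts made up 6.67% of Card14KI fibroblast barcodes (91 of 1364, exact binomial interval 5.41% to 8.13%) and 4.54% of WT fibroblast barcodes (97 of 2138, 3.69% to 5.51%), a difference of 2.13 percentage points (Newcombe interval 0.589 to 3.79). The difference was 0.694 points when Pi16 had to be 0 and 3.35 points when the collagen and decorin share had to reach 2%. The larger Myoc population, with 2 or more Myoc UMIs whatever the Pi16 count, was 42.7% and 31.4% of fibroblast barcodes. Among the fibroblast barcodes with Pi16 under 2, the Myoc Gpx3 fibroblasts were 91 of 304 and 97 of 646, since the fibroblasts with neither gene were fewer in Card14KI (213 and 549 barcodes). Shares of barcodes follow how well each cell type survived digestion as well as its number in the skin, and these cannot be told apart.

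Between genotypes, 13 of 23 interferon response genes, 9 of 14 MHC class I genes and 7 of 14 genes of the Pi16 program were at least 1.5-fold higher in Card14KI, and Gpx3, Apod, Gas6 and Emb were among the single genes that were lower. Of the muscle interstitial list 12 of 21, of lipid handling 9 of 17 and of the collagens outside the rule 8 of 15 were at least 1.5-fold lower. Within cluster 2 these counts were 3 of 14, 2 of 9 and 4 of 13 higher and 4 of 20, 6 of 16 and 1 of 14 lower. Gas6 and Emb passed 1.5-fold within cluster 2 as well, and Gpx3 and Apod did not. Of all 3388 genes tested in cluster 2, 368 were higher and 683 lower, the counts to set beside each cluster 2 list below. Of 5553 genes with 20 or more UMIs over both libraries, 497 (8.95%) were at least 1.5-fold higher in Card14KI and 1196 (21.5%) at least 1.5-fold lower. These are the shares to set beside each list count over all the Myoc Gpx3 fibroblasts. The median log2 ratio of CPM + 10 over all tested genes was -0.14. Scaling by median-of-ratios size factors gave 654 higher and 913 lower and a median of -0.05, which moved the share of higher genes among those past the fold from 29.4% to 41.7%; leaving ribosomal protein genes out of the totals gave 637 and 941. At 20 UMIs the fold is no wider than counting error: 12 against 8 UMIs, a ratio of 1.5 at equal totals, has an exact interval of 0.564 to 4.23. Folds are ratios of CPM, and log2 ratios are of CPM + 10, Card14KI over WT.

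**Figure D2:**
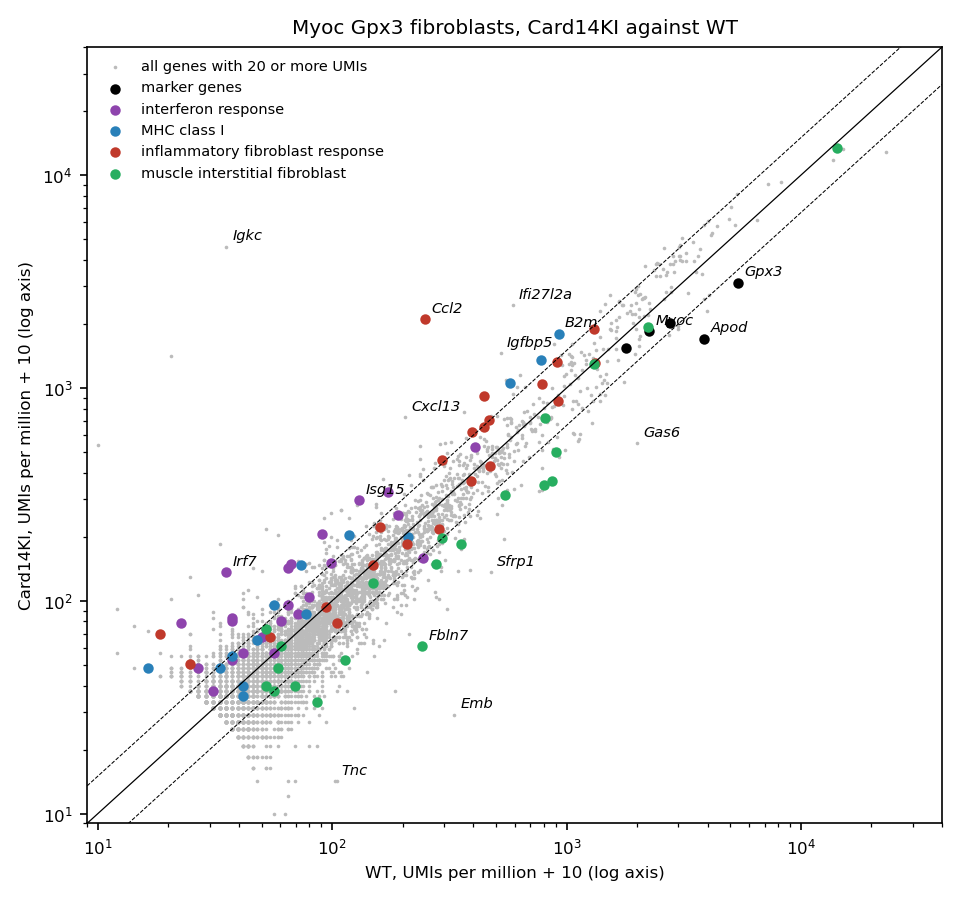
Level of each gene with 20 or more UMIs in the Myoc Gpx3 fibroblasts, as CPM + 10, Card14KI on the vertical and WT on the horizontal log axis. The solid line marks equality and the dashed lines a ratio of 1.5; Ccl2, Ifi27l2a, Irf7 and B2m lay above the upper dashed line, and Gpx3, Apod, Gas6, Sfrp1 and Emb lay below the lower one.

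Among the marker genes, Gpx3 had 1459 UMIs in Card14KI and 2559 in WT, a ratio of 0.577 (counting interval 0.541 to 0.616). Apod had 794 and 1832 UMIs, a ratio of 0.439 (0.403 to 0.477), with 1 WT barcode holding 255 of its UMIs. Dpt was at 0.725 (0.666 to 0.789), Ogn at 0.856 (0.774 to 0.947) and Myoc at 0.825 (0.753 to 0.903), none of them past 1.5-fold. In the fibroblasts with neither Myoc nor Pi16 the markers ran the other way, with log2 ratios of 0.96 for Gpx3, 0.73 for Apod and 1.12 for Ogn, against -0.79, -1.18 and -0.22 in the Myoc Gpx3 fibroblasts. In the Pi16 barcodes Gpx3 stood at 0.05 and in the barcodes with both Myoc and Pi16 at -0.70. Within cluster 2 the log2 ratio of Gpx3 was -0.53 and that of Apod -0.30, neither past 1.5-fold. Gpx3 stood there at 3870 CPM in Card14KI and 5597 CPM in WT. It stood at 1880 and 3327 CPM in cluster 4 and at 5131 and 5770 CPM in the remaining clusters. Apod stood at 2474 and 3048 CPM in cluster 2, at 847 and 986 CPM in cluster 4 and at 2689 and 7690 CPM in the remaining clusters.

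Emb and Gas6 were lower in Card14KI within cluster 2, within cluster 4 and in the remaining clusters. Emb, embigin, a membrane partner of lactate transporters, had 9 UMIs in Card14KI and 152 in WT (19.2 and 321 CPM, ratio 0.060, interval 0.0269 to 0.117). It stood at 14.4 and 388 CPM within cluster 2, at 16.9 and 226 CPM within cluster 4 and at 32.3 and 162 CPM in the remaining clusters, and was also lower in the other 3 classes of fibroblast barcodes (log2 ratios -2.29, -1.63 and -1.09). Gas6, the ligand of the TAM receptor kinases Tyro3, Axl and Mertk, stood at 540 and 1991 CPM, a ratio of 0.271 (0.235 to 0.312). In cluster 2 Gas6 stood at 655 and 2057 CPM, in cluster 4 at 182 and 1130 CPM and in the remaining clusters at 1280 and 2186 CPM; its log2 ratio was -1.86 in the Myoc Gpx3 fibroblasts and -0.10 in the fibroblasts with neither gene. Sfrp1, a secreted Wnt antagonist, stood at 126 and 464 CPM. It stood at 194 and 563 CPM within cluster 2 and at 290 and 352 CPM in the remaining clusters, with 5 and 3 UMIs in cluster 4, and its log2 ratio was -0.40 where a collagen and decorin share of 2% was asked for, against -1.80. Gfra1, the co-receptor of the growth factor GDNF, stood at 27.8 and 175 CPM, and Fbln7, a fibulin, at 51.3 and 232 CPM. Plod2, a lysyl hydroxylase of collagen, stood at 21.4 and 114 CPM. Kcne4, Pgr, Angpt4 and Kng2 were also at the lower end with at most 10.7 CPM in Card14KI, as was Fibin at 17.1 CPM. Krt71 and Tchh, proteins of the inner root sheath of hair, had 0 and 25 UMIs and 2 and 28 UMIs. Their levels in keratinocyte barcodes moved the same way (Krt71 0.188 and 178 CPM, Tchh 7.45 and 76.3 CPM), and the part of free RNA in these counts was not tested.

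At the upper end, Ifi27l2a, an interferon-inducible gene, had 1147 UMIs in Card14KI and 274 in WT (2450 and 578 CPM, ratio 4.24, interval 3.71 to 4.85). It was detected in 75 and 60 barcodes, with no barcode above 89 UMIs, and stood at 1165 and 356 CPM within cluster 2, 2960 and 1355 CPM within cluster 4 and 3076 and 894 CPM in the remaining clusters. Calcrl, the receptor shared by the peptides CGRP and adrenomedullin, stood at 66.2 and 4.22 CPM and Procr, the protein C receptor, at 175 and 23.2 CPM. Of the 82 Card14KI UMIs of Procr, 26 came from 1 barcode. The log2 ratio of Procr was 2.48 over all the Myoc Gpx3 fibroblasts and 0.12 within cluster 2, and that of Calcrl was 2.42 and 2.33. S100a4 stood at 207 and 42.2 CPM. Mustn1, Csprs, Rorb, Smpd3 and Gm12840 were also among the 15 highest, each on at most 91 UMIs. Within cluster 2 their log2 ratios were 0.96, -0.39, -0.39, -0.58 and 0.13. Igkc, an immunoglobulin light chain, had 2154 and 12 UMIs, but 2146 of the Card14KI UMIs came from 1 barcode; without the top barcode of each library it stood at 17.5 and 21.4 CPM. Hbb-bs, a red cell globin, stood at 120 and 14.8 CPM, and in keratinocyte barcodes at 97.8 and 11.4 CPM.

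Interferon response genes were mostly higher in the Card14KI Myoc Gpx3 fibroblasts. Of 25 listed genes 24 had 10 or more UMIs, 22 of these with a log2 ratio above 0; among 23 tested, 13 were at least 1.5-fold higher and 1 lower, against 8.95% and 21.5% of all genes, and the list's median log2 ratio was 0.53 against -0.14 over all genes. Irf7, the transcription factor that amplifies type I interferon, stood at 126 CPM in Card14KI and 25.3 CPM in WT. Usp18, the protease that takes ISG15 off its targets, stood at 68.4 and 12.7 CPM, and Isg15, the ubiquitin-like protein itself, at 288 and 120 CPM. Ifit1 and Ifit3, which bind viral RNA complexes, stood at 197 and 80.2 CPM and at 139 and 57.0 CPM. The interferon-inducible GTPases Irgm1 and Igtp stood at 132 and 54.9 CPM and at 70.5 and 27.4 CPM, and Iigp1 at 316 and 163 CPM. Ifit2 was the exception, at 8.54 and 27.4 CPM, and Bst2 at 517 and 397 CPM showed a smaller difference. The list's UMIs were unevenly spread: the top 10 barcodes held 46.9% of them in Card14KI and 45.4% in WT. Within cluster 2 the list summed to 2000 CPM in Card14KI and 1788 CPM in WT with a median log2 ratio of 0.15, and 3 of 14 tested genes were higher and 2 lower. Within cluster 4 it summed to 4018 and 3861 CPM (29 and 5 barcodes), and in the remaining clusters to 2248 and 1416 CPM (26 and 26 barcodes). Irf7, Usp18 and Isg15 stayed above 0 in cluster 2 (0.68, 1.24 and 0.53), whereas Ifit1 stood at 0.06 and Iigp1 at -0.06. These values rest on few UMIs. Isg15 had 20 and 31 UMIs in cluster 2, with overlapping counting intervals (87.9 to 222 CPM and 65.9 to 138 CPM). Irf7 and Usp18 had 12 and 6 UMIs in WT over all clusters.

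The promoters of these genes were searched for a letter pattern known as a binding site of interferon-activated factors. Its part in the levels was not tested. The motif searched was GAAANNGAAA on both strands (TTTCNNTTTC on the other), overlaps between matches allowed, within 250 bases before to 50 after each RefSeq gene start. It occurred in 12 of the 20 interferon response genes with a promoter in the table, in 4 of 13 MHC class I genes, in 0 of 12 small leucine-rich proteoglycan genes and in 0 of the 5 markers, and in 3.99% of all 27025 genes. The promoters of Isg15, Ifit3, Irgm1 and B2m follow as examples picked because they hold a match. They are from RefSeq on GRCm38.p6, 5' to 3' on the gene's strand, with matches in capitals.
Isg15, chr4:156200769-156201068, minus strand: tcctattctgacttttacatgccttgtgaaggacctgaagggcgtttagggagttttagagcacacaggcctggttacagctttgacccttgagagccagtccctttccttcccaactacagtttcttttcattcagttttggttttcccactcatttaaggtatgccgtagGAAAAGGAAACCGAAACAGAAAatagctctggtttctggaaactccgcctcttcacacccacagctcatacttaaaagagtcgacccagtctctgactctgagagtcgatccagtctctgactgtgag
Ifit3, chr19:34583279-34583578, plus strand: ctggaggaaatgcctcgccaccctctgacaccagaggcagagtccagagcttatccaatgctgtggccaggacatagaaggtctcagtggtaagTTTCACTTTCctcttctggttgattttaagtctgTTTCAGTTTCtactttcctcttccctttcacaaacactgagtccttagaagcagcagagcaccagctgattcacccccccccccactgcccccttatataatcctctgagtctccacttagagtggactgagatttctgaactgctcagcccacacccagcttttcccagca
Irgm1, chr11:48871371-48871670, minus strand: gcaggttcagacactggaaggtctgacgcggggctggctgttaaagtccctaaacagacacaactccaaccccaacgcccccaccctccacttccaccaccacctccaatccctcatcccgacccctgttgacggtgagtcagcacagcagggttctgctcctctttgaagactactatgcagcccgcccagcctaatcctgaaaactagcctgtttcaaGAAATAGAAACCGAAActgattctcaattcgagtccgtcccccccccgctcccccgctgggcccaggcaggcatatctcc
B2m, chr2:122147437-122147736, plus strand: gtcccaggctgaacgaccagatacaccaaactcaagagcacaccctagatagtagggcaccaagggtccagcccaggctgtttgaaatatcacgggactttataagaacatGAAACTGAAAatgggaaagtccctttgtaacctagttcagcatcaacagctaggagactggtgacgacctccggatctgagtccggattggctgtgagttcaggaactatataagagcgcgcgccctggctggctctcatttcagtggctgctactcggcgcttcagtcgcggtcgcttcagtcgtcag
Isg15 held 3 overlapping matches, Ifit3 and Irgm1 2 each and B2m 1. Irf7, the listed gene with the highest log2 ratio of CPM + 10, held none within this window. Among the MHC class I genes, H2-K1, H2-D1, H2-Q7 and Psmb8 held none either, while Erap1, which was not higher in Card14KI, held 1. A match is a description of the letters and not a measured site.

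Of 15 listed MHC class I and peptide-loading genes, which present antigen to T cells, 14 had 10 or more UMIs, 11 of these with a log2 ratio above 0. At least 1.5-fold higher in Card14KI were 9 of 14 tested, beside 8.95% of all genes, and 0 were lower, beside 21.5%; the median log2 ratio was 0.65. B2m, the invariant light chain of class I, had 839 and 433 UMIs (1792 and 914 CPM, ratio 1.96, interval 1.74 to 2.21). The heavy chains H2-K1 and H2-D1 stood at 1344 and 768 CPM and at 1049 and 566 CPM, and Psmb8, an immunoproteasome subunit, at 137 and 63.3 CPM. H2-Q7 stood at 38.4 and 6.33 CPM; its reads can be shared with near-identical class I genes, which makes the assignment uncertain. Tapbp (190 and 201 CPM), H2-Q4 and Erap1 were not higher. The summed level was 3186 CPM in Card14KI and 2895 CPM in WT within cluster 2, 6695 and 3594 CPM within cluster 4 and 3948 and 2567 CPM in the remaining clusters. In cluster 2, 2 of 9 tested genes were higher and 0 lower, with H2-K1 at a log2 ratio of -0.27.

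Of 35 inflammatory genes 23 had 10 or more UMIs, and 7 of 22 tested were at least 1.5-fold higher in Card14KI, beside 8.95% of all genes, and 0 lower, beside 21.5%. The list's median was 0.42. In a separate list of fibroblast chemokines 3 of 9 were higher and 2 lower, and its median was -0.15, beside -0.14 over all genes. Ccl2, the monocyte chemoattractant, had 980 UMIs in Card14KI and 113 in WT (2093 and 239 CPM, ratio 8.78, interval 7.22 to 10.8), from 36 and 31 barcodes, 286 of the Card14KI UMIs from 1 barcode. It stood at 151 and 175 CPM within cluster 2, at 4006 and 719 CPM within cluster 4 and at 140 and 209 CPM in the remaining clusters. Ccl7, a related chemokine, stood at 908 and 435 CPM, Cxcl10, the interferon-inducible chemokine, at 763 and 357 CPM, and Cxcl13, the B cell chemokine, at 722 and 194 CPM. Il6 stood at 698 and 456 CPM, Cxcl1, which did not reach 1.5-fold, at 1882 and 1305 CPM and Ptgs2, the inducible cyclooxygenase, at 613 and 384 CPM. Tslp, an alarmin cytokine, stood at 59.8 and 8.44 CPM, 18 of its 28 Card14KI UMIs from 1 barcode. Its log2 ratio was 0.08 within cluster 2. Cebpb, Ccl11 and Icam1 were near equal (1303 and 1309 CPM for Cebpb). In cluster 2 the inflammatory list ran the other way: it summed to 5733 CPM in Card14KI and 9480 CPM in WT, with a median log2 ratio of -0.45. There 1 of 20 tested genes was higher and 9 lower, with Ccl2 at -0.20, Ccl7 at -0.16 and Cxcl1 at -0.74. Of the chemokine list, Cxcl10 stood at -0.09 and Cxcl13 at -1.14 in cluster 2. None of the 5 chemokine genes with 20 or more UMIs there passed 1.5-fold in either direction, so Cxcl13 was not among them. In cluster 4 the inflammatory list summed to 22226 and 18874 CPM, and in the remaining clusters to 3625 and 4382 CPM. The top 10 barcodes held 64.4% of the list's UMIs in Card14KI and 48.5% in WT. Cxcl14 and Cxcl12, chemokines of resting fibroblasts, stood at 340 and 792 CPM and at 581 and 903 CPM.

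The receptors for the cytokines named in the series title were detected at low levels. Il17ra, the common IL-17 receptor chain, stood at 53.4 CPM in Card14KI and 106 CPM in WT (25 and 50 UMIs, ratio 0.506, interval 0.300 to 0.833) and was at -0.97 within cluster 2. Il17rc, its partner chain, had 7 and 10 UMIs. Il1rl2, the IL-36 receptor, stood at 107 and 63.3 CPM (50 and 30 UMIs, ratio 1.69, interval 1.05 to 2.75) and at a log2 ratio of 0.01 within cluster 2. Il1r2, the decoy IL-1 receptor, stood at 141 and 57.0 CPM, a log2 ratio of 1.17, and at 0.93 within cluster 2. Of the 22 receptor genes 15 were tested, 3 higher and 1 lower, beside 8.95% and 21.5% of all genes. Of the CARD14 pathway and NF-kB feedback list 14 were tested, 2 higher and 1 lower, beside the same shares, with a median of 0.18. That list depended on the barcodes taken, with 0 higher and 3 lower of 8 and a median of -0.23 in cluster 2. Where Pi16 was 0, 6 of 11 were higher and 0 lower, beside 343 and 726 of 3315 genes. The CARD14 list held Nfkb1 at 412 and 262 CPM, Nfkbia at 1277 and 1049 CPM and Birc3 at 89.7 and 139 CPM. Immediate early and heat shock genes, which dissociation can raise, had 1 of 27 higher and 4 lower, beside 8.95% and 21.5% of all genes. Fos stood at 1690 and 2026 CPM, Egr1 at 2732 and 4053 CPM, Hspa1a at 502 and 971 CPM and Atf3 at 483 and 298 CPM.

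Of 19 genes of the Pi16 adventitial and fascia program other than Pi16, 16 had 10 or more UMIs, 14 of these with a log2 ratio above 0. At least 1.5-fold higher in Card14KI were 7 of 14 tested, beside 8.95% of all genes, and 0 were lower, beside 21.5%. The list's median was 0.68, and 0.37 from the mean of CPM per barcode. Dpp4, a surface dipeptidase, stood at 258 and 99.2 CPM, Sema3c, a secreted semaphorin, at 235 and 108 CPM, Emilin2 at 190 and 88.7 CPM, Cd248 at 267 and 144 CPM, Cd55, which protects cells from complement, at 184 and 110 CPM and Opcml at 248 and 152 CPM. Wnt2 had 15 and 2 UMIs. Pi16 itself, at 0 or 1 UMI a barcode, stood at 105 and 97.1 CPM. In cluster 2 the median was 0.21, with 4 higher and 3 lower of 13, and Sema3c stood at -0.91 and Dpp4 at 0.46. Among Wnt and BMP modulators 5 of 17 were higher and 4 lower, beside 8.95% and 21.5% of all genes, and 4 of 12 in either direction in cluster 2. Fst, follistatin, an inhibitor of activin, stood at 250 and 88.7 CPM, Chrdl1, a BMP antagonist, at 235 and 82.3 CPM, Sfrp4 at 534 and 279 CPM and Bmp5 at 23.5 and 76.0 CPM. Chrdl1 stood at a log2 ratio of -0.68 within cluster 2, and Fst at 1.09. Of the IGF axis, 4 of 11 were higher and 1 lower, beside 8.95% and 21.5% of all genes (3 and 1 of 10 in cluster 2). Igfbp5 stood at 1444 and 513 CPM (log2 ratio 1.48, and 2.45 within cluster 2). Igfbp4 stood at 378 and 203 CPM (0.87, and -2.44 within cluster 2) and Igf1 at 352 and 424 CPM.

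Of 15 collagens tested, the 3 of the rule left out, 8 were at least 1.5-fold lower in Card14KI, beside 21.5% of all genes, and 1 higher. The list's median was -0.57, and -0.29 from the mean of CPM per barcode, with 4 lower. Col4a1, of the basement membrane network, stood at 355 and 855 CPM (ratio 0.415, interval 0.344 to 0.498), Col8a1 at 25.6 and 73.9 CPM and Col5a3 at 145 and 293 CPM, and Col12a1 had 13 and 45 UMIs. Of the collagens of the rule, Col1a1 at 1566 and 2031 CPM and Col1a2 at 2792 and 3295 CPM were within 1.5-fold (log2 ratios -0.37 and -0.24). Col3a1 stood at 1946 and 2979 CPM, lower by more than 1.5-fold (log2 ratio -0.61). In cluster 2 the median of the collagens outside the rule was 0.11, with 1 of 14 higher and 1 lower. They summed to 7135 CPM in Card14KI and 6850 CPM in WT in cluster 2, to 2248 and 2115 CPM in cluster 4 and to 2861 and 4734 CPM in the remaining clusters. Of 9 small leucine-rich proteoglycans other than Dcn 4 were lower and 0 higher, beside 21.5% and 8.95% of all genes. In cluster 2, 3 of 8 were lower and 1 higher. Dcn, decorin, a gene of the rule, stood at 11761 and 13664 CPM and Lum, lumican, at 1918 and 2206 CPM, while Aspn stood at 164 and 344 CPM, Podn at 139 and 266 CPM and Prelp at 124 and 213 CPM. Fmod had 2 and 45 UMIs, 22 of the WT UMIs from 1 barcode. Collagen-processing, elastic fibre and protease lists were near the 21.5% of all genes that were lower. Of 19 collagen-processing genes 4 were lower and 1 higher (P3h4, 18 and 5 UMIs), with Serpinh1, the collagen chaperone, at 931 and 1383 CPM. Among elastic fibre genes 3 of 17 were higher and 4 lower, beside 8.95% and 21.5% of all genes, with a median of -0.22. In cluster 2, however, the median was 0.54, with 7 higher and 2 lower of 14. Over all the Myoc Gpx3 fibroblasts, Efemp1 stood at 540 and 293 CPM and Ltbp1 at 66.2 and 23.2 CPM. Fbln2 stood at 555 and 1104 CPM and Emilin1 at 12.8 and 44.3 CPM. Of 17 genes of the myofibroblast and TGF-beta response 6 were lower and 3 higher, beside 21.5% and 8.95% of all genes (5 and 2 of 16 in cluster 2). Tnc, tenascin C, had 2 and 44 UMIs, Thbs1, thrombospondin 1, stood at 318 and 751 CPM, and Postn, periostin, at 525 and 228 CPM against 874 and 3653 CPM in the other fibroblasts. Timp3, an inhibitor of matrix proteases, stood at 1055 and 1750 CPM, and 4 of 17 genes of its list were lower and 0 higher.

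Of 21 muscle interstitial genes tested 12 were lower in Card14KI, beside 21.5% of all genes, and 1 higher, and the list's median was -0.58; from the mean of CPM per barcode it was -0.37, with 6 lower. Gsn, gelsolin, the most abundant, stood at 13369 and 14310 CPM, Smoc2 at 489 and 889 CPM, Abca8a at 305 and 534 CPM and Hsd11b1, which reactivates glucocorticoids, at 42.7 and 103 CPM. In cluster 2 the median was -0.24, with 1 of 20 higher and 4 lower, beside 368 higher and 683 lower of 3388 genes. The muscle interstitial list summed to 26225 CPM in Card14KI and 24140 CPM in WT in cluster 2. It summed to 15176 and 15300 CPM in cluster 4 and to 21686 and 25029 CPM in the remaining clusters. Of 17 lipid-handling genes 9 were lower and 0 higher, and in cluster 2 6 of 16 were lower, with a median of -0.30. Abca8b and Abca9, lipid transporters of the ABCA family, stood at 27.8 and 106 CPM and at 68.4 and 160 CPM, Apoe at 481 and 880 CPM and Abca1 at 105 and 220 CPM. Of 27 antioxidant genes 2 were higher and 3 lower, beside 8.95% and 21.5% of all genes, and 2 in either direction of 26 in cluster 2: apart from Gpx3, Txnip stood at 500 and 779 CPM and the metallothioneins Mt1 and Mt2 at 3751 and 2149 CPM and at 1591 and 1043 CPM, both of them below 0 within cluster 2 (-0.20 and -0.52). Of 16 glucocorticoid-responsive genes 2 were higher and 3 lower, beside 8.95% and 21.5% of all genes (1 and 3 of 15 in cluster 2). Zbtb16 stood at 51.3 and 148 CPM and Tsc22d3 at 211 and 279 CPM. Complement genes had 2 of 12 in either direction, beside the same shares of all genes, with C3 at 2433 and 1872 CPM. Pdgfra, the receptor that marks fibroblasts, stood at 466 and 914 CPM. Reticular and adipogenic genes had 2 of 14 higher and 5 lower, beside 8.95% and 21.5% of all genes. Beside the same shares, tendon and fascia genes had 0 of 6 higher and 3 lower, and endoneurial genes 1 of 6 higher and 3 lower. No cell cycle gene passed the fold upwards and 1 of 2 tested passed it downwards; of 7 senescence genes 1 was higher and 2 lower, with Cdkn1a at 376 and 403 CPM.

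**Figure D3:**
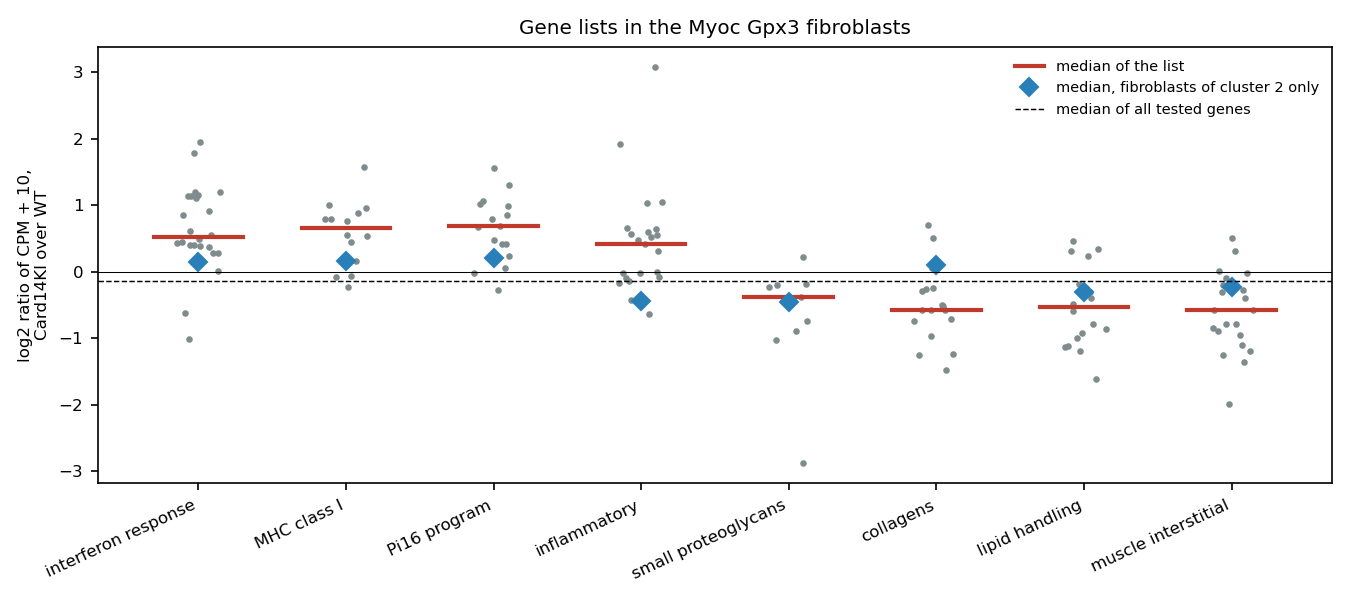
Log2 ratio of CPM + 10, Card14KI over WT, for each gene with 10 or more UMIs (grey) of 8 lists, genes of the membership rule left out, in the Myoc Gpx3 fibroblasts, with the list's median (red bar) and its median in the barcodes of cluster 2 alone (blue diamond). The interferon, MHC class I and Pi16 program medians were 0.53, 0.65 and 0.68 over all barcodes and 0.15, 0.17 and 0.21 in cluster 2, and the inflammatory median was 0.42 over all and -0.45 in cluster 2.

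Set beside the other fibroblasts of the same skins, the interferon and MHC class I medians had the same sign in all 4 classes and the muscle interstitial and lipid-handling medians did not. These differences between classes were not tested. Interferon genes had a median log2 ratio of 0.53 in the Myoc Gpx3 fibroblasts, 0.44 in the barcodes with both Myoc and Pi16, 0.41 in the Pi16 barcodes and 1.12 in the fibroblasts with neither, where 21 of 24 tested were higher, against 9.78% of all genes. In the barcodes with both genes 12 of 25 were higher (6.03% of all genes) and in the Pi16 barcodes 11 of 24 (6.27%). MHC class I medians were 0.65, 0.37, 0.30 and 0.77. Collagens outside the rule had medians of -0.57, -0.57, -1.04 and -0.86, and in the Pi16 barcodes 16 of 20 were lower (15.6% of all genes). Muscle interstitial genes stood at -0.58 and -0.54 in the classes with Myoc, with 12 of 21 and 12 of 22 lower (21.5% and 15.9% of all genes). In the Pi16 barcodes they stood at -0.01, with 7 of 22 lower (15.6% of all genes) and 2 higher (6.27%). In the fibroblasts with neither they stood at 0.31, with 1 of 21 lower (26.3% of all genes) and 8 higher (9.78%). Lipid-handling genes stood at -0.54, -0.36, -0.35 and 0.19. Postn and Igfbp4 also differed in sign between the Myoc Gpx3 fibroblasts (1.17 and 0.87) and the fibroblasts with neither gene (-2.05 and -1.56). The fibroblasts with neither gene were themselves unequal in makeup: cluster 7, led by Ednrb, Chchd10 and Mmp11 and holding 198 of them, had 20 Card14KI and 191 WT barcodes. The part of this makeup in their values was not tested.

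**Figure D4:**
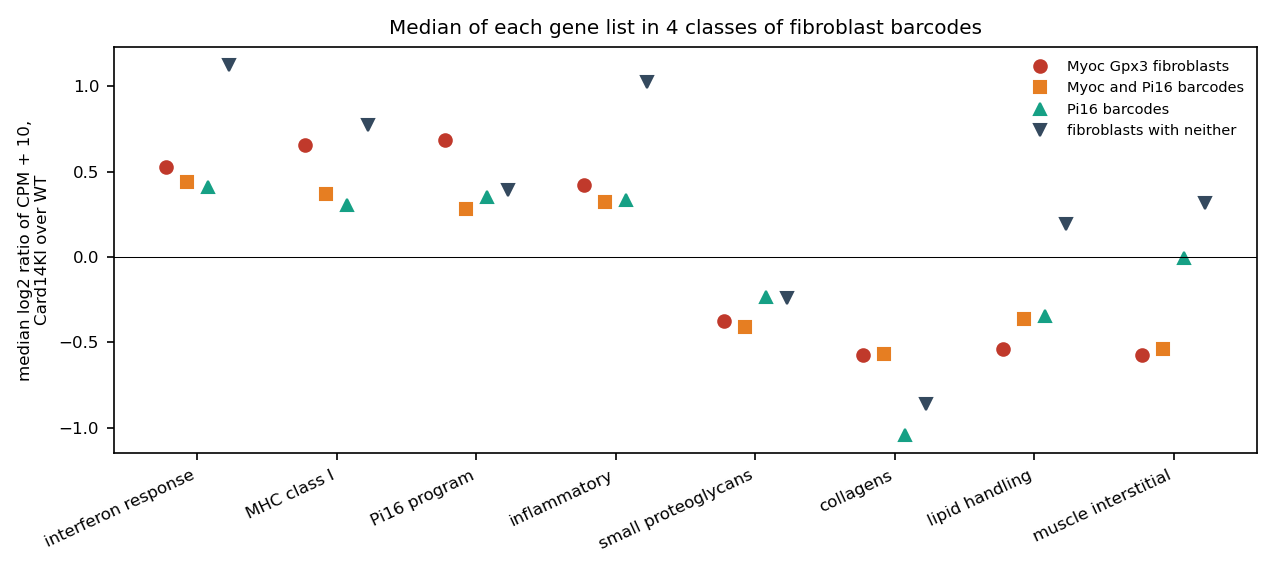
Median log2 ratio of CPM + 10, Card14KI over WT, of 8 gene lists, genes of the membership rule left out, in the Myoc Gpx3 fibroblasts (red circles), the barcodes with Myoc and Pi16 (orange squares), the Pi16 barcodes (green triangles) and the fibroblasts with neither (blue triangles). Interferon and MHC class I medians were above 0 in all 4 classes and collagen medians below 0, while the muscle interstitial median was -0.58 in the Myoc Gpx3 fibroblasts and 0.31 in the fibroblasts with neither gene.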

How the data were processed

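Whole back skin of 1 Card14KI and 1 WT mouse was dissociated and sequenced as droplet libraries; per the labels' protocols, reads were paired at 150 bp and processed with Cell Ranger. Per the submitters' processing notes the version was 6.0.2 and the build mm10, whereas the deposited matrix header, per the file headers, names version 5.0.0; no source used here gives the gene annotation's release. The authors deposited filtered matrices of whole-number UMI counts per gene and barcode, 1 set per library, with 31053 features; these counts were used as deposited.

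From the counts, barcodes were selected by the stated rule, summed per library and class, and scaled to CPM. Genes with 20 or more UMIs over both libraries were compared as a ratio of CPM, with 1.5-fold (genotypes) or 2-fold in both libraries (classes) as the size named; log2 ratios used a pseudocount of 10 CPM. Intervals at the 95% level are exact binomial for shares, Newcombe for their differences, exact Poisson for levels and exact conditional binomial for ratios; molecules shared a library, so they cover counting error only. Each fibroblast class held 468158 to 7512246 UMIs, which sets its precision. Keratinocyte barcodes had 1% or more of UMIs in keratins. Clusters came from 20 principal components of 1867 variable genes, 20 neighbours and Leiden resolution 0.6 (scanpy 1.11.5, leidenalg 0.10.2). Doublets were kept, since the rule removes none; Scrublet's own threshold marked 4 and 2 barcodes and had not worked, and removal of the 78 and 174 highest scores took 3 and 0 of the Myoc Gpx3 fibroblasts.

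Named genes are the markers and rule genes, the extremes of both comparisons (15 highest and 10 or 15 lowest), for each of 40 gene lists the 4 with the largest log2 ratio, the 2 most abundant and any that defines another cell type, and the 10 nearest to Myoc; other list genes named here were chosen after their values were seen. The members and lists were chosen with earlier results of these data known. Gene positions are from GENCODE on GRCm38 and promoters from RefSeq. Alternatives changed the filter, each limit of the rule, doublets, depth, scaling, summing, the UMI minimum and the top barcode; leaving out clusters other than cluster 2, leaving ribosomal protein genes out of the totals, and listing gene sets without the genes of the rule, were chosen after seeing the data. No sample was left out; single genes that the rule names but the text does not give are not reported here.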

Additional observations from a re-analysis of the deposited data

Results flagged for a closer look

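Genes whose ratio pointed one way in the Myoc Gpx3 fibroblasts and the other way in the fibroblasts with neither Myoc nor Pi16 are given here as log2 ratios of CPM + 10, Card14KI over WT. These differences between classes were not tested, and each rests on 1 mouse per genotype. Lower in the Myoc Gpx3 fibroblasts and higher in the others were Gpx3 (-0.79 and 0.96), Apod (-1.18 and 0.73), Sfrp1 (-1.80 and 0.48), Hmcn2 (-1.24 and 1.08), Akr1c14 (-1.46 and 0.49), F3 (-0.65 and 1.23), Timp3 (-0.72 and 0.70), Zbtb16 (-1.36 and 1.11), Birc3 (-0.58 and 0.62) and Kdr (-0.76 and 1.02), together with the lipid transporters Abca8b (-1.61 and 0.95) and Abca9 (-1.12 and 0.57). Higher in the Myoc Gpx3 fibroblasts and lower in the others were Igfbp4 (0.87 and -1.56), P3h4 (1.24 and -0.73), Col18a1 (0.51 and -0.94) and Igkc (7.03 and -4.77), the last of them resting on 1 Card14KI barcode.

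Outside the barcodes analysed, 2 Card14KI and 7 WT barcodes met the rest of the rule but not the limits on genes and mitochondrial UMIs; the 7 WT barcodes had a median of 568 UMIs and 10237 CPM of Gpx3.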

How the results depend on the processing

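The point value of the difference in the share of fibroblast barcodes stayed above 0 under the 8 alternatives tried for it (0.694 to 3.35 percentage points). No counting interval is given for these alternatives. The lowest, with Pi16 at 0, rests on 42 Card14KI and 51 WT barcodes, 3.08% and 2.39% of fibroblast barcodes. Of 2688 gene values recomputed (192 named genes under 14 alternatives), 2291 stayed within the counting interval of the reported value, 352 left it and 45 changed sign from a reported value past 1.5-fold on 20 or more UMIs; the cause was not tested. The number of genes lower in Card14KI was 726 with Pi16 at 0, 530 with a collagen and decorin share of 2%, 683 in cluster 2 alone and 4151 with no UMI minimum, against 1196. The number higher was 320 with the 2% share and 2918 with no minimum, against 497, the last because genes with few UMIs then enter. For the Myoc Gpx3 fibroblasts over the other fibroblasts, genes lower in both libraries were 141 with Pi16 at 0, 113 with the 2% share, 10 in cluster 2 alone and 1951 with no minimum, against 224, and genes higher were 27 in cluster 2 alone and 384 with no minimum, against 94. In cluster 2 alone, the log2 ratio changed sign for Npr1 (-0.86), Ccl2 (-0.20), Csprs (-0.39), Rorb (-0.39), Smpd3 (-0.58), Cxcl13 (-1.14), Col3a1 (0.10), Col6a2 (0.086), Sema3c (-0.91), F3 (0.43), Thbs4 (0.26), Cilp (0.17), Mt1 (-0.20), Mt2 (-0.52), Igfbp4 (-2.44), Tnfrsf1b (-0.17), Nfkb1 (-0.11), Ccl7 (-0.16), Cxcl10 (-0.089), Cxcl12 (0.035), Iigp1 (-0.058), H2-K1 (-0.27), Hspa1a (0.071) and Chrdl1 (-0.68). With a collagen and decorin share of 2%, the log2 ratio changed sign for Igkc (-0.055), Ccl2 (-0.38), Cxcl13 (-0.54), F3 (0.22), Thbs4 (0.33), Aspn (0.045), Txnip (0.0019), Igfbp4 (-1.17), Birc3 (0.10) and Btg2 (0.014). With the rule applied at 3000 UMIs, the log2 ratio changed sign for Igkc (-0.70), Kdr (0.36), Birc3 (0.077) and Pcna (0.074). Without the top barcode, the log2 ratio changed sign for Igkc (-0.19). With Pi16 at 0, the log2 ratio changed sign for Cxcl14 (0.17) and Igfbp4 (-0.027). With a mean of CPM per barcode, the log2 ratio changed sign for F3 (0.32), Mitf (0.45) and Insr (0.026). With Myoc from 1 UMI, the log2 ratio changed sign for Col18a1 (-0.35). No paired analysis was possible because each genotype has 1 mouse. Cluster 2 alone leaves 36 and 66 barcodes, so fewer genes reach 20 UMIs there.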
